A study of Mus musculus with 8 samples.

Results

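The S100 genes encode small calcium-binding proteins. In cultured mouse microglia, 8 of them were followed among the 52636 genes of a count table. These were S100a1, S100a4, S100a6, S100a8, S100a9, S100a10, S100a11 and S100a13, taken by their symbols with no threshold on their values. Primary microglia from neonatal brains of wild-type C57BL/6 mice (C57BL/6N pups in the methods of the study), shaken off mixed glial cultures that also hold astrocytes, were kept in 10% fetal bovine serum with 10 ng/ml of the microglial growth factor CSF-1. They then received 5 µg/ml lipopolysaccharide (LPS, a bacterial cell wall component sensed by Toll-like receptor 4) or vehicle for 24 h. There were 4 libraries per group, labelled as biological replicates 1 to 4, with 20071921 to 30604447 counts each. The labels do not say which animals or cultures each library came from, so p-values measure the spread between these libraries. No pair of libraries was identical. The study describes its primary microglial cultures as nearly pure.

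S100 proteins carry a pair of EF-hand motifs that bind calcium, usually act as dimers, and change shape on binding so that they can grip other proteins such as annexins and myosin. Inside the cell they tune the cytoskeleton, membrane traffic and enzymes. Several are also released, and S100A8 and S100A9, which together form calprotectin, act outside the cell as danger signals on Toll-like receptor 4 and on the receptor RAGE. Calprotectin is best known from neutrophils and monocytes, and myeloid cells can switch it on during inflammation.

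All 8 genes lie on mouse chromosome 3 (GRCm38, positions from GENCODE vM21). S100a1 and S100a13 start back to back, with 42 bases between the annotated genes. S100a4 and S100a6 lie 6836 bases apart, and S100a8 and S100a9 lie 22596 bases apart on opposite strands. S100a11 and S100a10 form a separate pair 2824766 bases beyond S100a9, and they are 28792 bases from each other.

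The sequences printed here lie just before the starts of S100a8, S100a9, S100a4 and S100a11, and in the gap between S100a1 and S100a13. They are shown because S100a8 and S100a9 are neighbours with very different counts, S100a4 fell the most, S100a11 held a repeated match, and S100a1 and S100a13 start back to back and moved in opposite directions. RefSeq promoter windows (GRCm38.p6, the 250 bases before each start) were found for 7 of the 8 genes, all but S100a10, and stretches that vM21 annotates as exon were left out. Both strands were searched for the AP-1 letters TGANTCA, the C/EBP letters TTGCNNAA, the letters TATAAA of a TATA box, and the NF-kB motif in the form of 3 G, any 2 bases, 3 T and 2 C. Capitals mark the matches. No matches in these windows overlapped each other. The S100a8 stretch is chr3:90668821-90668977 on the + strand, and the TATA box site of S100a8, chr3:90669031-90669060, is given apart because vM21 starts the gene 93 bases before the RefSeq start. The S100a9 stretch is chr3:90695722-90695971 on the - strand. The S100a4 and S100a11 stretches are chr3:90603520-90603769 and chr3:93520246-93520487 on the + strand. The gap between S100a1 and S100a13 is chr3:90514393-90514434, written on the + strand, along which S100a13 is transcribed.
S100a8: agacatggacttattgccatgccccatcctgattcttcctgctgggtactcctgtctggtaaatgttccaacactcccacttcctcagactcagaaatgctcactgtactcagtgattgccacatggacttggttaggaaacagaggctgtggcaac
S100a8 TATA box site: agctttcctcTATAAAagcagctgacactt
S100a9: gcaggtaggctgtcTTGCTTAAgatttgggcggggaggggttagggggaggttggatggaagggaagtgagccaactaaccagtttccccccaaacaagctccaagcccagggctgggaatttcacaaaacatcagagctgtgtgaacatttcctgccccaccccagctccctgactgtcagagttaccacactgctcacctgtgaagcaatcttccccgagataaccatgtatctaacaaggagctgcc
S100a4: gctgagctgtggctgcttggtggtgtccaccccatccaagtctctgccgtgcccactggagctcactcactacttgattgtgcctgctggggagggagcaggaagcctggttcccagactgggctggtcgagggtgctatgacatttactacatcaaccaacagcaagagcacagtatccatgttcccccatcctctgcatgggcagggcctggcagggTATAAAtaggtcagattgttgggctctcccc
S100a11: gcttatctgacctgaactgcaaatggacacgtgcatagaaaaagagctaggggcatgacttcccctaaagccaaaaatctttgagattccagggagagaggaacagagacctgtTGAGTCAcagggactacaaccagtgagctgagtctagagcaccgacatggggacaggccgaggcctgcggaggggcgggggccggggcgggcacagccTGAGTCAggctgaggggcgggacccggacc
S100a1 to S100a13 gap: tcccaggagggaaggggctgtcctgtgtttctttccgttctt

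TATAAA was found in 2 of the 7 windows, 30 bases before the RefSeq start of S100a8 and 31 bases before that of S100a4, and 12.4% of 32851 mouse promoter windows of the same length hold it. S100a11 held the AP-1 letters at 2 places, 136 and 38 bases before its start, against 6.75% of promoter windows with at least 1 match. S100a9 held the C/EBP letters 236 bases before its start (9.56% of windows). The NF-kB letters (1.41% of windows) were in none of the 7 windows. A match is a description of the letters, and its absence says only that these letters are not in the window.

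Of the 8 genes, 7 passed the filter on low counts. S100a8, S100a11 and S100a13 rose after LPS, and S100a1 and S100a4 fell, while S100a6 and S100a10 did not pass the test in the unpaired fit (edgeR quasi-likelihood test, Benjamini-Hochberg adjusted p under 0.05). Over all 13847 genes tested, 30.3% were called higher and 33.8% lower, so calls were common, and 5 of 7 is to be read against 64.1% called in either direction. The median log2 fold change was 0.65 over the 7 tested S100 genes and -0.11 over all tested genes. In 4 of the 7 (S100a1, S100a4, S100a8 and S100a13) the 2 groups did not overlap, against 60.2% of all tested genes.

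**Figure D1:**
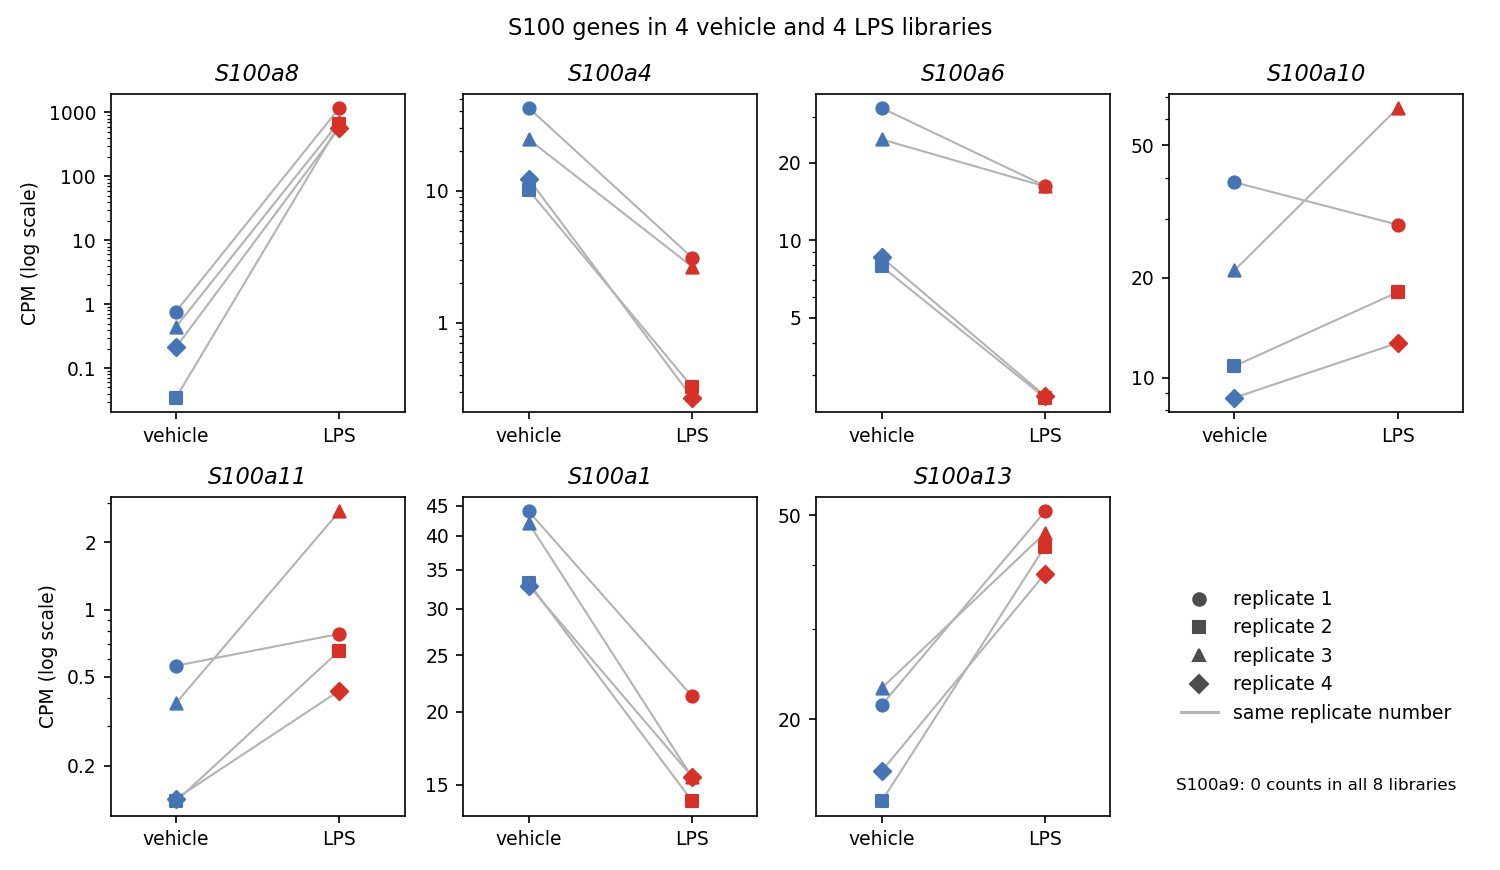
Counts scaled per library (CPM, log scale, library sizes scaled by TMM) of 7 S100 genes in each vehicle (blue) and LPS (red) library. Marker shape gives the replicate number, and grey lines join libraries that share a number. S100a8 went from at most 0.770 CPM to at least 572 CPM, S100a4 fell in all 4 numbers, and S100a9 had 0 counts in all 8 libraries.

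After LPS, the counts of the calprotectin genes lay furthest apart among the S100 genes followed. S100a8 (ENSMUSG00000056054, chromosome 3, 90668978 to 90670035, + strand) was close to silent in vehicle, with 22, 1, 14 and 6 counts in replicates 1 to 4, or 0.770, 0.0346, 0.444 and 0.213 CPM. After LPS it had 19604, 11931, 15265 and 10570 counts, or 1173, 650, 712 and 572 CPM. Every LPS library was far above every vehicle library. The mean rose from 0.365 ± 0.318 to 777 ± 270 CPM (SD, n = 4 each), a log2 fold change of 11.03 (SE 0.59, edgeR adjusted p = 5.29e-07), or 2090-fold. The vehicle side of this fold rests on few counts, and without vehicle replicate 1 the log2 fold change was 11.69.

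S100a9 (ENSMUSG00000056071, chromosome 3, 90692632 to 90695721, - strand), the usual binding partner of S100a8, had 0 counts in each of the 8 libraries. A count of 0 allows up to 3 counts per library, or 0.0952 to 0.107 CPM in vehicle and 0.140 to 0.180 CPM after LPS. Against that limit S100a8 was at least 3523-fold higher than S100a9 in the LPS library with the fewest S100a8 counts and at least 6535-fold higher in the one with the most. None of the 516 windows of 50 bases (the read length) in S100a9 transcripts occurs in a transcript of another vM21 gene. How the count of 0 arose was not tested, and S100a9 is only listed at 0. The table has a row for S100a9, but the sources used here do not say whether reads could be assigned to it, and if they could not, neither the limit of 3 counts nor these folds apply. None of the 645 windows of S100a8 is shared with another gene either.

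S100a8 supplied 0.0455 to 0.427% of the counts of the 8 genes in vehicle and 82.8 to 90.6% after LPS. Together the 8 genes took 0.00973 to 0.0226% of all counts in vehicle and 0.0525 to 0.108% after LPS. Without S100a8 the ranges overlapped and lay lower after LPS, at 0.00972 to 0.0225% in vehicle and 0.00572 to 0.0104% after LPS. These shares use raw totals, without the TMM scaling of the CPM values. The TMM factors were 1.208 to 1.32 in vehicle and 0.701 to 0.8331 after LPS, so shares and CPM compare the groups on different scales. The lower range without S100a8 therefore holds for raw totals only, and it was not computed on the TMM scale.

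Because neutrophils and monocytes carry calprotectin, their markers were read beside S100a8. Of 13 neutrophil markers, 11 had at most 3 counts in every library, and Mpo, Ctsg, Retnlg, Itgb2l and Stfa2l1 were at 0 throughout, while Ly6g had 0 to 3 counts. The remaining markers were Camp, with 50, 6, 11 and 6 counts after LPS and 0 to 3 in vehicle, and Mmp8, a collagenase gene that rose from 5.72 ± 5.53 to 278 ± 210 CPM (log2 fold change 5.60, SE 0.80, edgeR adjusted p = 0.000199). The summed level of the list went from 2.09 to 13.9 CPM in vehicle to 130 to 584 CPM after LPS, nearly all of it Mmp8, and LPS replicate 1 was highest for Mmp8, Camp and S100a8 alike. Of 6 monocyte markers, 3 were tested and 2 rose, Vcan among them (log2 fold change 1.88), while Ccr2 was not called. Chil3 was at 0 in every library. Ly6c2 had 6, 0, 1 and 0 counts in vehicle replicates 1 to 4 and 16, 0, 0 and 0 after LPS. Plac8 had 0 counts in every vehicle library and 4, 2, 3 and 4 counts after LPS. The summed level of the monocyte list was 8.91 to 24.0 CPM in vehicle and 70.7 to 129 CPM after LPS. The part of such cells in the S100a8 result was not tested. All 12 microglia markers were detected, with summed levels of 11300 to 13988 CPM in vehicle and 3376 to 3643 CPM after LPS. Of these, 9 fell and 1 rose, while over all tested genes 33.8% were called lower and 30.3% higher. Among those that fell, log2 fold changes ran from -1.06 (Tyrobp) to -7.26 (Cx3cr1). Itgam rose from 252 ± 61.0 to 965 ± 78.1 CPM. Aif1 (126 ± 41.3 and 126 ± 24.0 CPM) and Tmem119 were not called. In bulk RNA, fewer cells of a type and less RNA per cell cannot be told apart.

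S100a4, which binds the heavy chain of nonmuscle myosin IIA and is known for its role in cell motility, showed the largest fall of the 7 genes tested. S100a4 (ENSMUSG00000001020, chromosome 3, 90603771 to 90606045, + strand) had 42.4, 10.1, 24.5 and 12.3 CPM in vehicle replicates 1 to 4. After LPS it had 3.11, 0.327, 2.66 and 0.270 CPM. The highest LPS library lay below the lowest vehicle library, although replicates 1 and 3 stood well above 2 and 4 in both groups. Its mean fell from 22.3 ± 14.8 to 1.59 ± 1.50 CPM, a log2 fold change of -3.80 (SE 0.74, edgeR adjusted p = 0.00143), so that the LPS level was 0.0716 of the vehicle level. Of the 534 windows of S100a4, 47.4% also lie in Gm42674, an annotated read-through transcript on the same strand that had 0 counts in all libraries.

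S100a6 (calcyclin, ENSMUSG00000001025, chromosome 3, 90612882 to 90624181, + strand) is the next of the 8 genes after S100a4, and it is often raised in dividing cells. It had 32.6, 7.92, 24.6 and 8.59 CPM in vehicle replicates 1 to 4. After LPS it had 16.3, 2.45, 16.2 and 2.49 CPM. The groups overlapped, because replicates 1 and 3 after LPS stood above replicates 2 and 4 of vehicle. Unpaired, the log2 fold change was -0.98 (SE 0.70, edgeR adjusted p = 0.244). With the replicate number as a block it was -1.22 (SE 0.22, edgeR adjusted p = 0.00176), and S100a6 then counted as lower. Within numbers 1 to 4 the log2 difference lay between -1.78 and -0.61, lower after LPS in 4 of 4. With that block, 6 of the 7 tested genes were called, 3 higher and 3 lower, beside 29.7% and 35.6% of all tested genes.

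**Figure D2:**
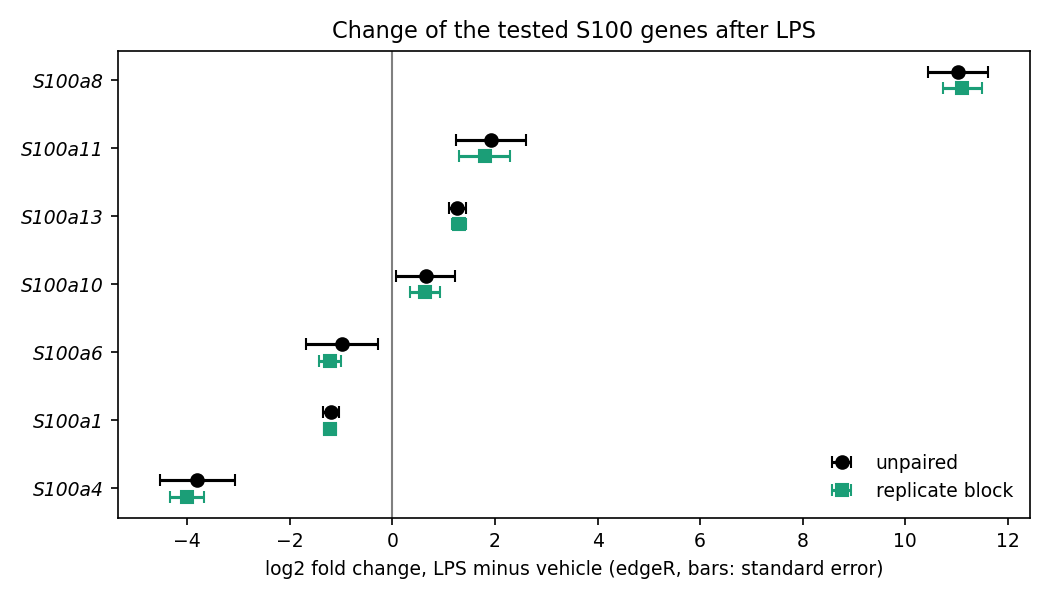
Log2 fold change of the 7 tested S100 genes, LPS minus vehicle, from edgeR without (black circles) and with (green squares) the replicate number as a block. Bars are standard errors. The block narrowed the error of S100a6 from 0.70 to 0.22 and of S100a4 from 0.74 to 0.33, and S100a8 stands apart at 11.03.

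S100a10 and S100a11 are partners of annexins, proteins that bind membranes in a calcium-dependent way. S100a10 (p11, ENSMUSG00000041959, chromosome 3, 93555080 to 93564643, + strand) is the family member that has lost calcium binding, and it pairs with annexin A2. It had 38.7, 10.8, 21.0 and 8.70 CPM in vehicle replicates 1 to 4 and 28.8, 18.1, 64.8 and 12.7 CPM after LPS. The groups overlapped broadly, and number 1 moved down while numbers 2, 3 and 4 moved up. The log2 fold change was 0.65 (SE 0.57, edgeR adjusted p = 0.338), and it was 0.01 without LPS replicate 3 and 1.21 without vehicle replicate 1, neither of them called.

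S100a11 (calgizzarin, ENSMUSG00000027907, chromosome 3, 93520488 to 93526287, + strand), a partner of annexin A1, was scarce in both groups. It had 16, 4, 12 and 4 counts in vehicle replicates 1 to 4 (0.560, 0.138, 0.381 and 0.142 CPM) and 13, 12, 59 and 8 counts after LPS (0.778, 0.653, 2.75 and 0.433 CPM). LPS replicate 3 stood above the rest, and the groups overlapped. The log2 fold change was 1.92 (SE 0.68, edgeR adjusted p = 0.0317), higher in 4 of 4 numbers. The call was lost without LPS replicate 3 (log2 fold change 1.01, edgeR adjusted p = 0.138), without vehicle replicate 2 (1.68, 0.0778) and without vehicle replicate 4 (1.68, 0.0785). Of its 462 windows, 41.1% also occur in the processed pseudogene Gm12854 on chromosome 4, which had 0 to 7 counts, so the level of S100a11 is uncertain where uniquely aligned reads alone were counted.

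S100a13 and S100a1, the pair that starts back to back, moved in opposite directions. S100a13 (ENSMUSG00000042312, chromosome 3, 90514435 to 90524581, + strand) helps release signal proteins that lack a secretion signal, such as interleukin-1 alpha and fibroblast growth factor 1. It had 21.3, 13.8, 23.0 and 15.8 CPM in vehicle and 50.9, 43.5, 46.2 and 38.5 CPM after LPS. Every LPS library lay above every vehicle library, and the mean rose from 18.5 ± 4.36 to 44.7 ± 5.19 CPM, a log2 fold change of 1.27 (SE 0.17, edgeR adjusted p = 0.000146), or 2.42-fold.

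S100a1 (ENSMUSG00000044080, chromosome 3, 90511034 to 90514392, - strand), best known from heart and muscle, where it acts on calcium handling, had 44.0, 33.2, 42.0 and 32.9 CPM in vehicle. After LPS it had 21.2, 14.05, 15.4 and 15.5 CPM. Every LPS library lay below every vehicle library. The mean fell from 38.0 ± 5.82 to 16.6 ± 3.20 CPM, a log2 fold change of -1.20 (SE 0.16, edgeR adjusted p = 0.000134), or 2.30-fold lower. Per kilobase of exon, S100a1 lay above S100a13 in each vehicle library (47.4 to 63.4 against 19.4 to 32.2), and S100a13 lay above S100a1 in each LPS library (53.8 to 71.1 against 20.2 to 30.6).

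Levels were then compared between genes per kilobase of annotated exon. In vehicle the order was S100a1 (54.8 ± 8.39 CPM per kilobase), S100a4 (38.2 ± 25.4), S100a13 (25.9 ± 6.09), S100a10 (16.4 ± 11.3) and S100a6 (13.5 ± 8.93), then S100a11 (0.597 ± 0.400) and S100a8 (0.527 ± 0.458). Only S100a6 and S100a11 were neighbours whose ranges did not overlap, although S100a1, the first, did not overlap S100a13, S100a10 or S100a6. After LPS the order was S100a8 (1119 ± 390 CPM per kilobase), S100a13 (62.6 ± 7.25), S100a10 (25.7 ± 19.3), S100a1 (23.8 ± 4.61), S100a6 (6.84 ± 5.81), S100a4 (2.73 ± 2.58) and S100a11 (2.26 ± 2.10). S100a10 overlapped S100a1, S100a6 overlapped S100a4, and S100a4 overlapped S100a11. By this level S100a8 moved from rank 11486 to rank 45 of 13828 ranked genes, and S100a4 moved from rank 817 to rank 7502.

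**Figure D3:**
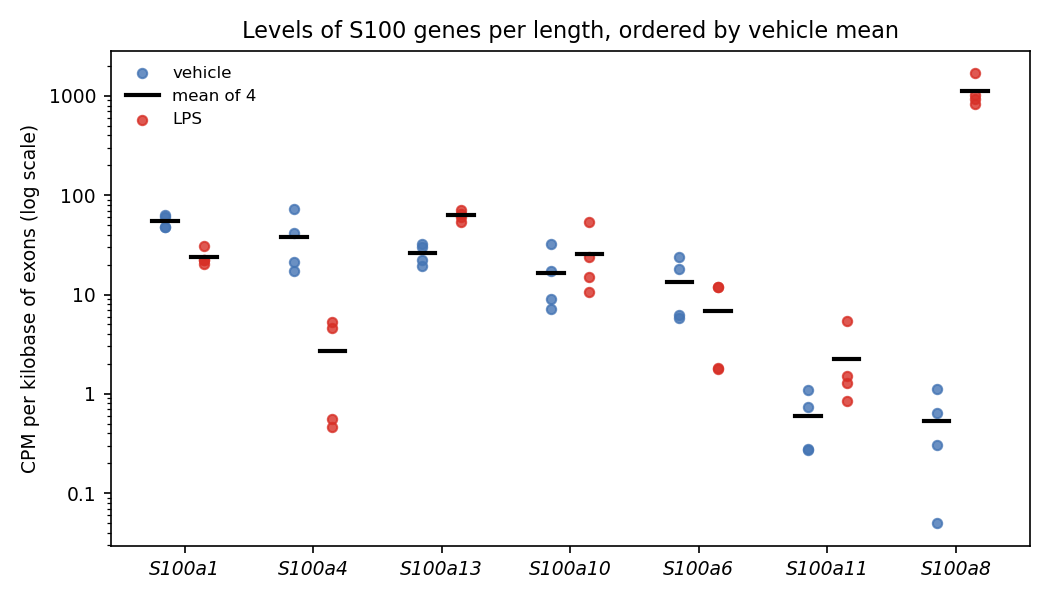
Level of 7 S100 genes in CPM per kilobase of exon (log scale) in 4 vehicle (blue) and 4 LPS (red) libraries, ordered by the vehicle mean. Points are libraries and black lines are means of 4. S100a8 has the lowest mean in vehicle, 0.527, and the highest after LPS, 1119.

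The spread between libraries had a shape of its own. In S100a4, S100a6, S100a8, S100a10, S100a11 and S100a13, 6 of the 7 tested genes, replicates 1 and 3 were above replicates 2 and 4 in both groups, as were 679 of the 13847 tested genes (4.90%). This arrangement was noticed in the values and was not tested. S100a1 missed it only by LPS replicates 3 and 4 (15.4 and 15.5 CPM). The summed levels of 2 marker lists followed the same arrangement, the neutrophil list (13.9, 2.11, 5.36 and 2.09 CPM in vehicle replicates 1 to 4 and 584, 130, 262 and 141 CPM after LPS) and the fibroblast and mural list (7.56, 4.08, 5.39 and 3.76 CPM, then 11.4, 9.26, 25.0 and 7.57 CPM). The summed endothelial list ran the other way, with replicates 2 and 4 above 1 and 3 in both groups. It was at 37.1, 83.4, 54.8 and 82.5 CPM in vehicle and 248, 272, 196 and 268 CPM after LPS. Most of that sum was Flt1 (48.6 ± 23.6 CPM in vehicle and 165 ± 52.9 CPM after LPS). Pecam1 was highest in vehicle replicate 1 and Kdr in vehicle replicate 3. Of the 4 tested endothelial genes 3 rose, beside 30.3% of all tested genes, while Cldn5 was at 0 in every library. The astrocyte list (37.9, 46.6, 20.5 and 45.0 CPM, then 124, 41.0, 45.5 and 49.3 CPM) and the list for oligodendrocytes and their precursors (146, 129, 92.9 and 125 CPM, then 23.5, 20.1, 20.6 and 17.6 CPM) followed neither arrangement in both groups. Most of the astrocyte sum after LPS was Gja1, with 1640, 531, 756 and 590 counts in LPS replicates 1 to 4. Gja1 rose by a log2 fold change of 5.79, while Gfap, Aldh1l1 and Aqp4 fell. Of the 7 fibroblast and mural markers, 3 were tested, Dcn rose (log2 fold change 5.98) and none was at 0 in all libraries. The collagen gene Col1a1 had 15, 2, 47 and 1 counts in vehicle replicates 1 to 4 and 0 to 3 after LPS. Other genes of this list departed from the arrangement of its sum. Acta2 was lowest in vehicle replicate 3, with 139, 96, 34 and 92 counts in vehicle and 99, 32, 78 and 42 after LPS. Dcn had 79, 124, 416 and 87 counts after LPS, with replicate 2 above replicate 1. The part of such cells in the spread of the S100 genes was not tested.

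Genes that bind, receive or travel with S100 proteins were read from a list of 15, of which 13 were tested. Of these, 7 rose and 2 fell, beside 30.3% of all tested genes called higher, 33.8% called lower and 64.1% called in either direction, so calls on the list were about as common as elsewhere. The median log2 fold change was 0.75 on the list and -0.11 over all tested genes. Ager, which encodes RAGE, and Fgf1 had too few counts for the test, with 2 to 20 and 0 to 18 counts per library.

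Among the annexins and their scaffold, Anxa2, partner of S100a10, rose from 165 ± 29.0 to 1060 ± 385 CPM (log2 fold change 2.69, SE 0.25, edgeR adjusted p = 1.45e-05). Anxa6 rose by a log2 fold change of 2.40 and Anxa1, partner of S100a11, by 1.51 (SE 0.21 and 0.24). Anxa11, a partner of S100a6, did not pass the test at -0.06. Ahnak, a giant scaffold protein that binds the complex of S100A10 and annexin A2, did not pass it either, at 0.74 (SE 0.48, edgeR adjusted p = 0.201).

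Of the receptors of calprotectin, Tlr4, also the receptor of LPS, fell from 192 ± 11.9 to 85.0 ± 43.1 CPM (log2 fold change -1.17, SE 0.28, edgeR adjusted p = 0.00487). Bsg (basigin), a surface receptor of S100A9, rose from 176 ± 12.6 to 439 ± 39.8 CPM (log2 fold change 1.32, SE 0.11, edgeR adjusted p = 8.06e-06). Cd36, a fatty acid receptor that also binds calprotectin, was at 637 ± 242 and 694 ± 332 CPM and was not called. Receptor genes thus went in different directions while S100a8 rose.

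Among the cargo of S100a13, Il1a, the gene of interleukin-1 alpha, had 125, 26, 58 and 27 counts in vehicle replicates 1 to 4 and 34577, 13915, 84244 and 12743 counts after LPS. It rose by a log2 fold change of 9.85 (SE 0.91, edgeR adjusted p = 1.26e-05), and 9.14% of its windows also lie in a gene on the opposite strand. Syt1, a synaptic vesicle protein found in the same release complex, fell by 2.13 on the log2 scale from a low level of 0.724 ± 0.324 CPM. Among the others, Myh9, the myosin bound by S100a4, rose by a log2 fold change of 1.20 and Cacybp, which binds S100a6, by 0.75, while S100pbp was at 0.05 and not called.

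**Figure D4:**
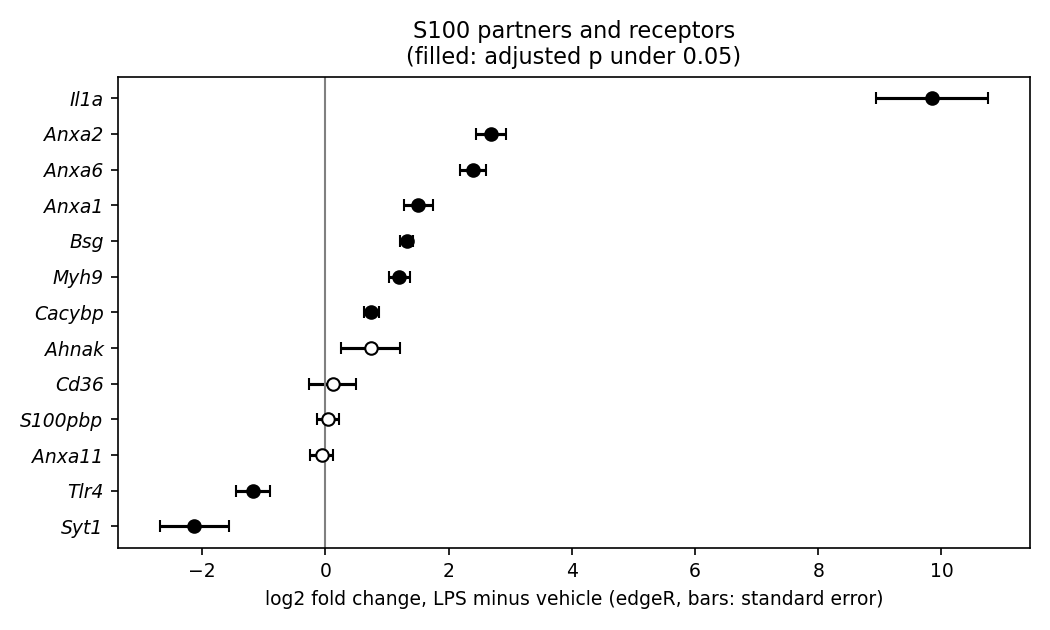
Log2 fold change (LPS minus vehicle, edgeR, bars are standard errors) of the 13 tested genes on the list of S100 partners and receptors. Filled circles passed an adjusted p of 0.05. Il1a at 9.85 and Anxa2 at 2.69 lead the 7 that rose, and Tlr4 and Syt1 are the 2 that fell.

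S100A10 is held with annexin A2 in a complex of both proteins, so their counts were set against each other within each library. The log2 ratio of S100a10 to Anxa2 counts was -2.25, -3.70, -3.21 and -3.99 in vehicle replicates 1 to 4, and -4.80, -5.71, -4.65 and -6.07 after LPS. Every LPS ratio lay below every vehicle ratio. The mean went from -3.29 ± 0.76 to -5.31 ± 0.69, a difference of -2.02 (two-sided exact permutation p = 0.0286, the smallest that the 70 divisions of 8 libraries allow). Within replicate numbers the difference was -2.55, -2.01, -1.44 and -2.08, lower in 4 of 4, and the exact sign-flip p was 0.125, the smallest that 4 pairs allow. Anxa2 was called higher and S100a10 was not called.

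**Figure D5:**
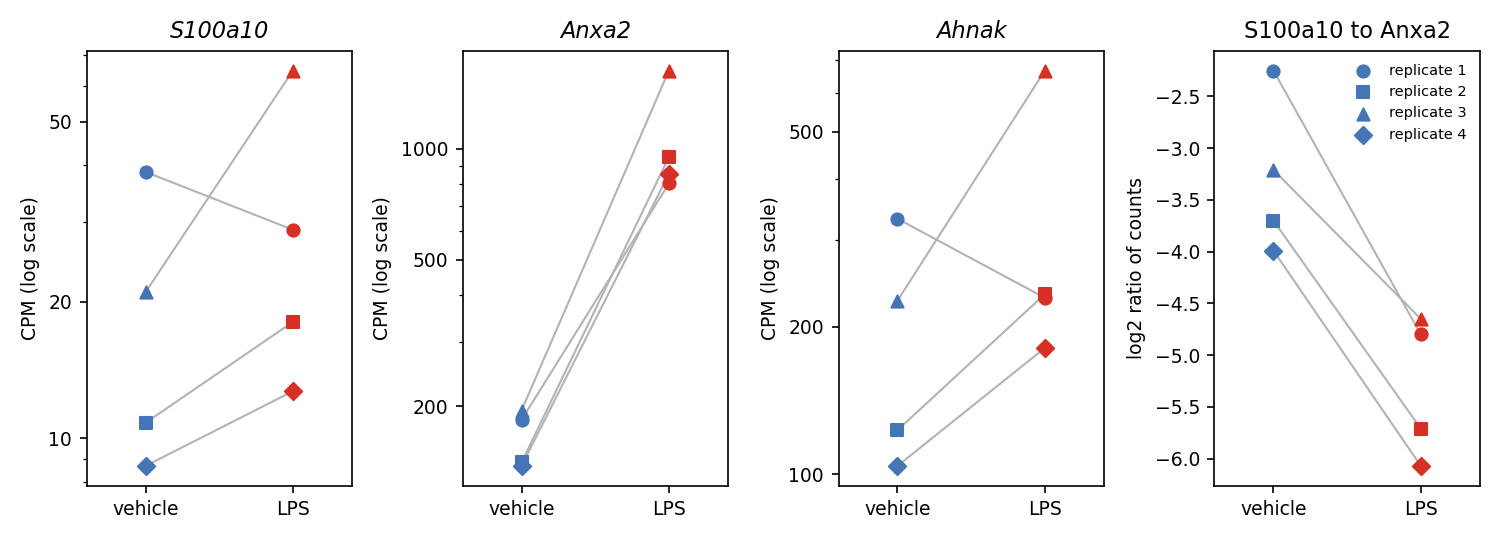
S100a10, Anxa2 and Ahnak in CPM (log scale), and the log2 ratio of S100a10 to Anxa2 counts, in vehicle (blue) and LPS (red) libraries. Marker shape gives the replicate number and grey lines join equal numbers. Anxa2 rose in all 4 numbers, S100a10 and Ahnak in 3 of 4, and the ratio fell in all 4.

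Across the 8 libraries, the genes whose log2 profile lay nearest to that of each S100 gene were picked from the 8010 genes whose log2 CPM averaged 3 or more, by the root mean square difference after centring. Nearest to S100a8 were Ptgs2 (0.56), Serpinb2 (0.57) and Csf3 (0.60), whose log2 fold changes were 10.73, 10.86 and 10.07. Nearest to S100a10 was Ahnak at 0.26, followed by Pygl (0.42) and Pstpip2 (0.45). Ahnak carried the same single exception as S100a10, a fall in number 1, with 332, 123, 226 and 104 CPM in vehicle and 229, 233, 666 and 181 CPM after LPS.

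Nearest to S100a4 were Fn1 (0.43), the fibronectin gene, which went from 491 to 30.1 CPM, Ptgs1 (0.65) and Adssl1 (0.95). S100a6 lay nearest to Clec4n (0.47), Alox5ap (0.62) and Atrnl1 (0.63). Their log2 fold changes were -0.16, -0.58 and -0.64, against -0.98 for S100a6, so nearness of profile did not require a like change after LPS. S100a11 lay nearest to Il7r (0.38), Il13ra1 (0.38) and Ahnak (0.44). The steadiest profiles had the closest companions. S100a1 lay within 0.10 to 0.13 of Rpl14-ps1, Rack1 and Slc39a11, and S100a13 within 0.11 to 0.13 of Gm1840, Capg and Gpi1. These values describe 8 libraries that share the same treatment contrast.

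The other S100 genes stayed near zero. Of 10 further family members, 9 were in the table and none passed the filter. S100a2, S100a5, S100a7a and S100z had 0 counts in all libraries. The highest were S100a16, with 17, 31, 8 and 29 counts in vehicle and 5, 8, 2 and 3 after LPS, and S100b, the astrocyte member of the family, with 9, 31, 1 and 24 counts in vehicle and 5, 7, 2 and 1 after LPS. Both had their highest counts in vehicle replicates 2 and 4, where S100a4, S100a6 and S100a10 were low. Some markers of astrocytes and oligodendrocyte precursors were highest in the same 2 libraries. Gfap had 154, 229, 48 and 254 counts and Pdgfra 81, 483, 12 and 420 in vehicle replicates 1 to 4. Others on these lists differed. Aqp4, Aldoc, Mbp and Cspg4 (686, 363, 362 and 374 counts) were highest in vehicle replicate 1, and Aldh1l1 in vehicle replicate 3. Of 8 astrocyte markers, all tested, 3 fell after LPS (Gfap, Aldh1l1 and Aqp4) and 1 rose (Gja1). Of 8 markers of oligodendrocytes and their precursors, 6 were tested and 4 fell, beside 33.8% of all tested genes called lower. The part of such cells in these counts was not tested.

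The 3.054 megabases from S100a1 to S100a10 hold 113 other annotated genes, and 89 of these had 0 counts in all libraries. Of the others, 5 were tested, Gm9774 and Gm4202 rose (log2 fold changes 0.87 and 0.85) and Gm38078 fell (-1.95), none of them above 10 CPM on average. The largest of these 5 was Gm4202, at 4.83 ± 0.627 CPM in vehicle and 8.73 ± 1.19 CPM after LPS.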

How the data were processed

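RNA of 4 vehicle and 4 LPS libraries was analysed. The deposited values are raw counts, which the authors made by counting uniquely aligned single-end reads of 50 bases per Ensembl gene with HTSeqGenie. Reads had been aligned with GSNAP to GRCm38, and nothing was normalized. Both names also stand in the submitters' processing notes. The labels and the methods of the study name different kits and sequencers, and whether counting used strand, and which annotation release, are not given in the sources used here. Symbols, positions and transcripts came from GENCODE vM21, which matched 52403 of 52636 gene identifiers, and promoter sequences from RefSeq.

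All genes were fitted with edgeR 4.0.16 (TMM, filterByExpr with a minimum count of 10 and minimum total of 15, two-sided quasi-likelihood test) under R 4.3.3, and p-values were adjusted over all 13847 tested genes at a threshold of 0.05. CPM used TMM-scaled library sizes. A count of 0 was taken to allow up to 3 counts, and such limits cover counting error only. DESeq2 1.42.0 was an alternative. Other steps used Python 3.11.15, numpy 2.4.6, pandas 2.3.3, scipy 1.17.1 and matplotlib 3.10.9. Simulated data with known changes were used to test the fits. The log2 ratio used a pseudocount of 0.5 counts. A planned ratio of S100a9 to S100a8 was not computed, since S100a9 had no counts.

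Both groups carry replicate numbers 1 to 4 in the labels. Over 8010 genes, deviations from the group means correlated between same-numbered libraries at 0.373, 0.196, 0.171 and 0.108, all above 0.1, so the numbers were treated as pairs in a blocked alternative. For number 4 another LPS library correlated more (0.137).

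The genes, lists and marker sets were chosen with earlier results of these data known. Named genes are the 8 S100 genes, the other S100 genes and the partners on fixed lists, defining cell type markers, tested genes between the outermost S100 genes, and the 3 genes with the nearest profile to each. Camp, Mmp8, Dcn, Col1a1, Gfap and Pdgfra were singled out from their lists after their values were seen. So were Pdgfrb, Acta2, Aqp4, Aldoc, Aldh1l1, Gja1, Cspg4, Mbp, Flt1, Pecam1, Kdr, Itgam, Aif1, Tmem119, Cx3cr1 and Tyrobp. One monocyte marker counts in its list but is not reported here.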

Additional observations from a re-analysis of the deposited data

Results flagged for a closer look

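One value stood apart from its group. Among the LPS libraries, S100a11 was at 2.75 CPM in replicate 3 and at 0.433 to 0.778 CPM in the others, a gap that passes Dixon's 95% limit for 4 samples. This was 1 of 14 groups examined, and chance marks about 1 in 20 groups. In the same library S100a10, Anxa2, Anxa1 and Ahnak were also highest of the LPS group (64.8, 1630, 790 and 666 CPM). The summed fibroblast and mural markers were highest there too (25.0 CPM), mostly from Dcn (416 counts), while Col1a1 had 2 and Pdgfrb 9 counts. The part of such cells in these values was not tested.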

How the results depend on the processing

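Over 95 refits of the 7 S100 genes (DESeq2, DESeq2 size factors, upper quartile scaling, no filter, a minimum of 10 counts in each library, the replicate block, and each library left out), no direction was reversed and 91 kept their side of the threshold. Upper quartile scaling moved the median log2 fold change of all genes from -0.11 to -0.27 without changing a call among the S100 genes. Every refit scaled the libraries, and plain library totals were not tried. Under a minimum of 10 counts in each library, 1 S100 gene was higher and 1 lower, since S100a4, S100a8 and S100a11 were no longer tested, and 1 partner gene was lower. The replicate block added S100a6 (-1.22) and changed no other call of an S100 gene. The ratio of S100a10 to Anxa2 was -2.02 with the replicate block (exact sign-flip p = 0.125) and -2.26 to -1.68 with 1 library left out, where p could not go below 0.0571. Among the other S100 genes 1 was lower (S100a16) with DESeq2 and with no filter on low counts, and 0 to 1 with 1 library left out. By length of the longest transcript 2 pairs of genes changed places in the vehicle order, and leaving out 1 library exchanged 0 to 1 pairs in the LPS order. The S100a9 to S100a8 ratio was not run under any setting, since S100a9 had no counts. Of 181 refits of the partner genes, 10 changed sign, all in Anxa11, Cd36 and S100pbp, which were not called. Low counts limit S100a11 in both groups (4 to 59 per library) and S100a8 in vehicle (1 to 22 per library).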
